A study of Mus musculus with 18 samples.

Results

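Lipid droplets store triacylglycerol as a core of neutral lipid under a single layer of phospholipid, and the proteins that coat this layer decide how easily the stored fat can be reached. The coats are the perilipins and CIDEC, and the lipases act in sequence. ATGL (Pnpla2) removes the first fatty acid, hormone-sensitive lipase (Lipe) the next, and monoacylglycerol lipase (Mgll) the last, while G0s2 is an inhibitor of ATGL. In muscle, droplets lie beside mitochondria and supply fatty acids for oxidation. In fat cells, they fill most of the cell.

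The 10 genes described here are the 6 coat genes Cidec, Plin1, Plin2, Plin3, Plin4 and Plin5, the 3 lipase genes Pnpla2, Lipe and Mgll, and G0s2. They were taken by name from the 43430 genes of the count table, through their Ensembl identifiers. RNA-Seq was performed on myofibers isolated from the quadriceps of young adult C57BL/6 mice of both sexes (C57BL/6J in the study's methods) treated for about a month with prednisone every day, prednisone once a week, or vehicle alone. Every mouse was injected each day, so that weekly animals received vehicle on the days without prednisone. The dose of each prednisone injection, per body weight, was the same in both regimens. The final weekly dose was given days before the muscle was taken, whereas daily mice were dosed every day. Regimen and time since the last dose therefore cannot be told apart. Each of the 6 groups (male vehicle, male weekly, male daily, female vehicle, female weekly and female daily) held 3 libraries, 1 per mouse, or 18 libraries in all. The muscle was digested with collagenase II and the fraction held back by a cell strainer was lysed, so that cells other than fibers could be carried with it.

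Libraries held between 10506661 and 14686654 gene counts. The myofiber markers Acta1, Ckm, Myh4, Myh1, Ttn, Pvalb, Mb and Des all had a mean above 1 CPM (gene counts scaled by library size) in every group and summed to between 95038 and 171244 CPM per library. Their median sum was 152044 CPM in male vehicle, 118412 in male weekly and 122006 in male daily libraries, and 133125, 97596 and 119287 CPM in the same female groups, with treated and vehicle libraries overlapping. Markers of adipocytes were present too and moved with the treatment. The 10 genes Adipoq, Cfd, Retn, Lep, Fabp4, Pparg, Cebpa, Adrb3, Thrsp and Acvr1c summed to 344 to 609.8 CPM in male vehicle, 669.6 to 1117 in male weekly and 641 to 1377 in male daily libraries. In females they summed to 671 to 752 CPM with vehicle, 893 to 5082 with weekly and 1083 to 3115 with daily prednisone. Adiponectin (Adipoq), which is made by fat cells, was at 4.13 to 12.2 CPM in the 6 vehicle libraries and reached 331 CPM in female weekly replicate 3. In female weekly replicate 2 it was at 15 CPM, against 183 CPM in replicate 1. Macrophage, endothelial and fibroblast markers summed to 15.8 to 35.7, 354 to 934 and 469.7 to 1721 CPM over the 18 libraries. In females the macrophage markers summed to 15.8 to 27.4 CPM with vehicle and 26.7 to 35.7 CPM with weekly prednisone. With daily prednisone averaged over the sexes, 1 of 5 macrophage markers was called higher (7.48% of all genes). In the same comparison 1 of 8 myofiber markers was called lower (7.47%), and 0 of the endothelial and fibroblast markers were called. The blood markers Hba-a1, Hbb-bs and Alas2 summed to 78.1 to 93.5 CPM in male daily and 52.9 to 66.1 in female daily libraries, against 84.4 to 132 and 73.1 to 134 CPM with vehicle, and 2 of these 3 genes were called lower with daily prednisone averaged over the sexes (7.47% of all genes). The part of these shifts in the results on the droplet genes was not tested. In such bulk RNA, more cells of a type and more RNA per cell cannot be told apart.

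All 10 genes passed the filter on low counts. Averaged over the sexes, daily prednisone raised Cidec, Plin1 and Plin4. These were 3 of 10 genes against 15% of all 13596 tested genes called in either direction and 7.48% called higher (edgeR's quasi-likelihood test, adjusted p under 0.05 by Benjamini-Hochberg over all tested genes). Cidec was 10.2-fold higher, with a log2 fold change of 3.35 ± 0.69 (SE, 6 daily and 6 vehicle libraries, edgeR adjusted p = 0.00631). Plin1 was 12.1-fold higher, at 3.60 ± 0.82 (edgeR adjusted p = 0.0105). Plin4 was 1.83-fold higher, at 0.88 ± 0.20 (edgeR adjusted p = 0.0095). The remaining genes did not pass: Lipe stood at 1.05 ± 0.38 (edgeR adjusted p = 0.0801), Plin2 at 0.69 ± 0.39, G0s2 at 0.64 ± 0.28, Pnpla2 at 0.63 ± 0.31, Plin5 at 0.58 ± 0.35, Mgll at 0.20 ± 0.20 and Plin3 at 0.17 ± 0.10. All 10 estimates were above 0, with a median of 0.67 beside 0.02 for all tested genes. At an unadjusted p under 0.05, 5 genes were higher, against 15.5% of all genes.

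The number of calls depended on the tool. DESeq2 called 4 of the 10 in the same comparison (17.3% of all genes), adding Lipe (adjusted p = 0.0231). limma-voom called 2 (13.7% of all genes), without Plin1 (adjusted p = 0.087). Leaving out each library in turn left 3 or 4 calls, the 4 including Lipe without female daily replicate 1 (adjusted p = 0.0365, 17.9% of all genes). With the adipocyte marker score as a further term in the edgeR fit, 0 of the 10 were called (0.191% of all genes). That score did not overlap between vehicle and treated libraries, so that this fit cannot tell score and treatment apart.

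Within each sex the same fit called none of the 10 genes. Daily males gave 0 of 10 (6.46% of all genes), daily females 0 of 10 (0.382%), and weekly males and weekly females 0 of 10 each (0% of all genes in both). At an unadjusted p under 0.05, 3 genes were higher in daily males (10.6% of all genes), 6 in daily females (9.65%), 2 in weekly males (3.01%) and 6 in weekly females (5.67%). DESeq2 called Cidec, Plin1 and Plin4 in daily males (3 of 10, 10.2% of all genes) and Cidec and Plin1 in daily females (2 of 10, 3.90%). It called Cidec, Plin1, Lipe and G0s2 in weekly females (4 of 10, 1.12%) and none in weekly males (0.00736%). With edgeR fitted to the 6 male daily and vehicle libraries alone, Cidec, Plin1 and Plin4 were called (12.1% of all genes). For weekly prednisone averaged over the sexes, edgeR called 0 of 10 (0% of all genes), with 5 higher at an unadjusted p under 0.05 (6.4%), and DESeq2 called Cidec, Plin1, Lipe and G0s2 (1.35%). The weekly estimates were 3.97 ± 0.83 for Plin1, 3.47 ± 0.70 for Cidec, 1.27 ± 0.38 for Lipe and 1.24 ± 0.28 for G0s2. Plin2 stood at 1.06 ± 0.40, Pnpla2 at 0.63 ± 0.31 and Mgll at 0.41 ± 0.20. Plin5 stood at 0.30 ± 0.35, Plin3 at 0.14 ± 0.10 and Plin4 at 0.04 ± 0.20. For Cidec and Plin1 (edgeR adjusted p = 0.134 for both) they were no smaller than the daily estimates. A call with daily prednisone only therefore does not set the regimens apart for either gene. The daily and weekly comparisons shared the vehicle libraries and are given side by side, not as independent evidence.

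**Figure D1:**
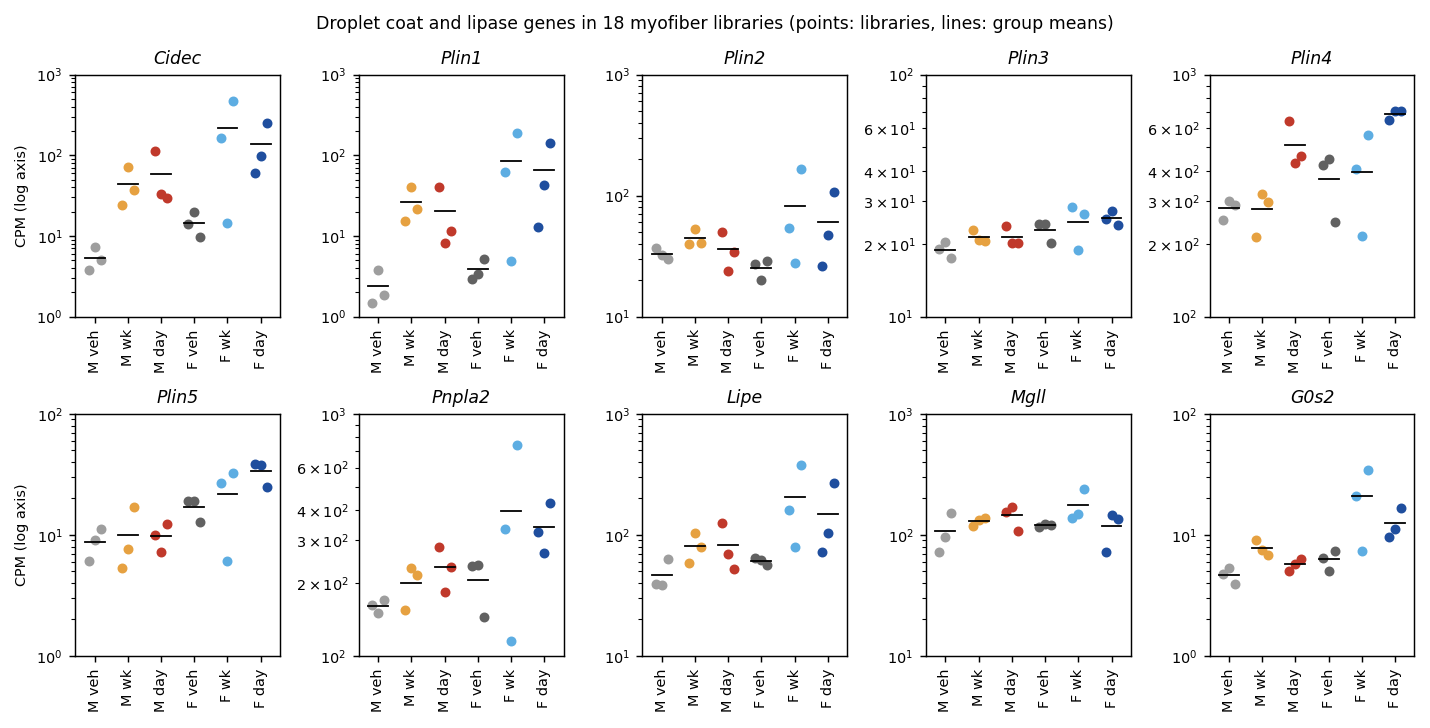
Level of each gene in CPM on a log axis, 1 point per library and a line at the mean of each group (M, male; F, female; veh, vehicle; wk, weekly; day, daily prednisone; n = 3 per group). Cidec and Plin1 spread over more than a factor of 100 between their lowest and highest libraries, Plin3 over a factor of 1.62, and the Plin4 points of both daily groups lie above those of vehicle.

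The promoters of the 3 genes called higher with daily prednisone are shown because the study's drug acts through the glucocorticoid receptor. The study wrote the binding pattern of this receptor as ACANNNTGT. The window of Lipe, a gene that edgeR did not call, was added because it alone of the 10 genes' windows held a match. Second windows of Cidec and Lipe, without a match, are not shown. Each line holds the 250 bases before a RefSeq transcript start (build GRCm38.p6), 5′ to 3′ on the gene's strand, with a match to that pattern in capitals. They lie on the minus strand, at chr6:113435761-113436010 for Cidec, chr7:79732777-79733026 for Plin1, chr17:56109783-56110032 for Plin4 and chr7:25390113-25390362 for Lipe, the last before a start inside the Lipe gene.
Cidec: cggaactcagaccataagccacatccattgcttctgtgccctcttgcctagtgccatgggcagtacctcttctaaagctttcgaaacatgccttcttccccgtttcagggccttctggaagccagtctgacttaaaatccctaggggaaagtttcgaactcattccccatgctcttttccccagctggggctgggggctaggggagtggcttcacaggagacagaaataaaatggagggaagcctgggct
Plin1: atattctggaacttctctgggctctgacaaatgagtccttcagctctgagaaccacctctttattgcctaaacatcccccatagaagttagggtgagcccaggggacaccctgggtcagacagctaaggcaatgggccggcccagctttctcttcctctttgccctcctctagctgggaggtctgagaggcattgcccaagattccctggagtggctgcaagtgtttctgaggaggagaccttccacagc
Plin4: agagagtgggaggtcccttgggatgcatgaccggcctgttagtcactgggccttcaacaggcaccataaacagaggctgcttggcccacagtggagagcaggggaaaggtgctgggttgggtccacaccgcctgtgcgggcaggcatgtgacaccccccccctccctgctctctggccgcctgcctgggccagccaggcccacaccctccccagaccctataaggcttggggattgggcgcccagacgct
Lipe: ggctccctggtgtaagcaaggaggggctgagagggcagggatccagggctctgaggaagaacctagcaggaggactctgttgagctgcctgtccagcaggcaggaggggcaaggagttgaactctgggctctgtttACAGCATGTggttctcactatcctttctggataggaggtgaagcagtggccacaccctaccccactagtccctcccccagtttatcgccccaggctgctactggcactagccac

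Of the 14 RefSeq windows of 300 bases (250 before and 50 after a start) found for the 10 genes, 1 held ACANNNTGT on either strand, in Lipe, starting 114 bases before the start. The pattern was in 6.85% of 32851 windows of the same length. The nuclear receptor half-site AGGTCA, in 16.3% of all windows, was found 218 bases before the start of Plin2 and in both windows of Plin5. Both strands were searched, and AGGTCA repeated with 1 base between the copies (0.0396% of windows) was in none of the 10 genes' windows. These are matches of letters and say nothing about binding. The study tested established or likely receptor sites, with Cidec among the genes, by chromatin immunoprecipitation. It reported more receptor binding at sites near lipid metabolism genes in weekly females and no change there in weekly males. For genes without a known site it searched a far wider stretch around the start, so that these windows can miss sites.

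Cidec (ENSMUSG00000030278, mm10 chr6:113424634-113435760, minus strand) encodes a droplet fusion protein of fat cells. In males its level was 3.77, 7.36 and 5.0 CPM with vehicle, 24.1, 71.1 and 36.6 CPM with weekly and 114, 32.9 and 29.3 CPM with daily prednisone. In females it was 14.1, 19.6 and 9.67 CPM with vehicle, 162, 14.5 and 468 CPM with weekly and 60.9, 97.4 and 251 CPM with daily prednisone. Both male treated groups and the female daily group lay wholly above their vehicle groups. Female weekly replicate 2 lay within the female vehicle range, while its partners were the highest and the third highest of all 18 libraries. The log2 fold changes were 3.45 ± 1.0 in daily males (10.9-fold, edgeR adjusted p = 0.0555), 3.25 ± 0.96 in daily females (edgeR adjusted p = 0.114), 3.03 ± 0.99 in weekly males (edgeR adjusted p = 0.849) and 3.90 ± 0.99 in weekly females (edgeR adjusted p = 0.247).

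Plin1 (ENSMUSG00000030546, chr7:79721164-79732776, minus strand) encodes perilipin 1, the coat that holds back lipolysis on the droplets of fat cells until it is phosphorylated. Per kilobase of exon it was the lowest of the 10 genes in vehicle libraries. Its levels there were 1.49, 3.73 and 1.87 CPM in males and 2.96, 3.37 and 5.19 CPM in females. Weekly prednisone libraries held 15.5, 40.8 and 21.7 CPM in males and 62.5, 4.88 and 189.7 CPM in females. Daily libraries held 40.7, 8.17 and 11.4 CPM in males and 13.1, 42.2 and 143 CPM in females. As for Cidec, only female weekly replicate 2 among the 12 treated libraries failed to exceed every vehicle library of its sex. The log2 fold changes were 3.09 ± 1.18 in daily males (edgeR adjusted p = 0.135), 4.10 ± 1.15 in daily females (edgeR adjusted p = 0.101), 3.46 ± 1.19 in weekly males (edgeR adjusted p = 0.849) and 4.48 ± 1.17 in weekly females (edgeR adjusted p = 0.247).

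Cidec and Plin1 followed the adipocyte markers from library to library. The adipocyte score is the mean log2 CPM of the 10 marker genes listed above, none of which is among the droplet genes described here. Over the 18 libraries the log2 CPM of Cidec had a Pearson r of 0.967 with it (Spearman's rho 0.967, permutation p = 1e-05 for both, the smallest that 100000 permutations can give; adjusted over the 10 genes, 3.33e-05 and 5e-05). Plin1 had an r of 0.968 (rho 0.95, permutation p = 1e-05 for both, the smallest they can give; adjusted as for Cidec). The permutations shuffled all 18 libraries without regard to group, so that differences between groups shared by gene and score count in these p-values. Without the 2 libraries farthest from the median score, r was 0.951 for Cidec and 0.947 for Plin1. After taking out the 6 group means it was 0.956 and 0.972. In the fit with the adipocyte score as a term, the daily log2 fold change averaged over the sexes was 0.40 for Cidec (edgeR adjusted p = 0.541) and 0.08 for Plin1 (edgeR adjusted p = 0.924). Averaged over the sexes, the adipocyte markers rose with daily prednisone as well, 8 of 10 being called higher (7.48% of all genes). The score was 2.32 to 3.10 in the vehicle libraries and 3.56 to 6.90 in the treated ones, without overlap. Score and treatment were thus largely confounded, and the fit with both compared libraries across scores where vehicle and treated ones did not meet. Its estimates and lost calls cannot tell the 2 apart. Within a sex, 1 of the 10 markers was called in females (0.382% of all genes) and 0 in males (6.46%). In daily males Lep was at -0.01 and Thrsp at -0.39 on the log2 scale. The part of adipocyte RNA in the rise of either gene was not tested.

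**Figure D2:**
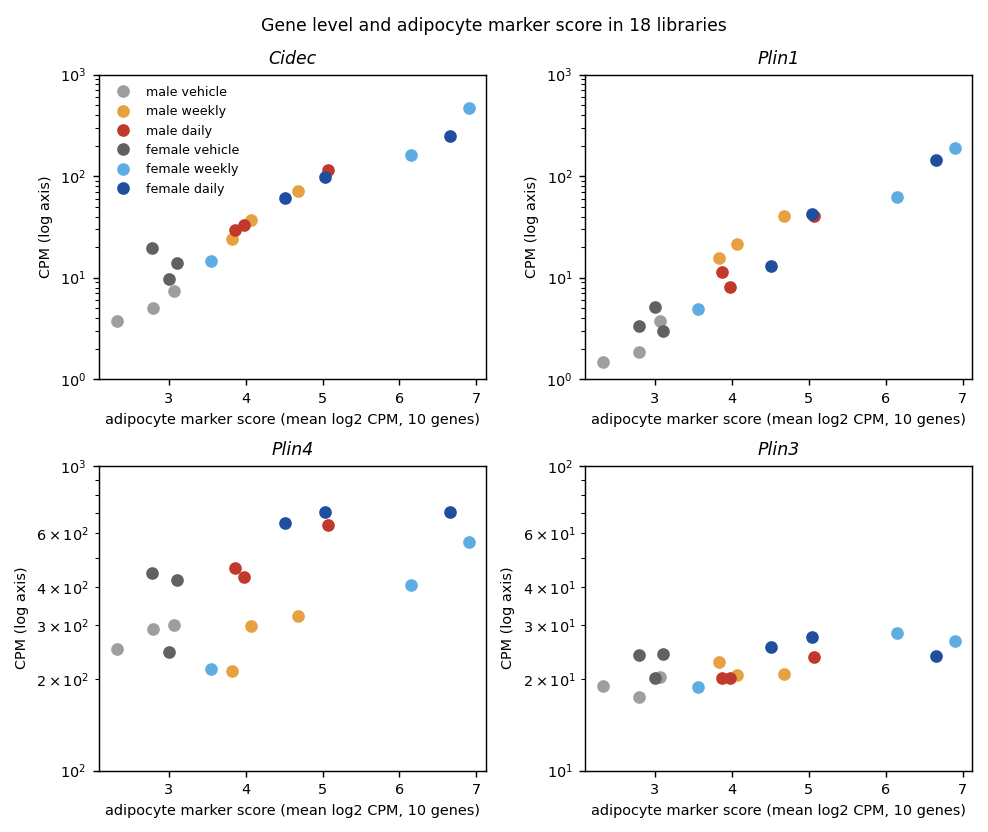
Level of Cidec, Plin1, Plin4 and Plin3 (CPM, log axis) against the adipocyte marker score (mean log2 CPM of 10 genes), 1 point per library, coloured by group. Cidec and Plin1 climb with the score over all 18 libraries, while for Plin4 the daily libraries lie above weekly libraries of a similar score.

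Plin4 (ENSMUSG00000002831, chr17:56100591-56109803, minus strand), a perilipin of fat and muscle with a long repeat region, was called with daily prednisone averaged over the sexes and not with weekly prednisone. Males had 251, 300.4 and 290.4 CPM with vehicle, 212, 322 and 298 CPM with weekly and 640.1, 431 and 460.4 CPM with daily prednisone. Females had 423, 446 and 245 CPM with vehicle, 406, 216 and 562 CPM with weekly and 651, 707 and 704 CPM with daily prednisone. All 6 daily libraries were above the vehicle and the weekly libraries of their sex, whereas weekly and vehicle libraries overlapped in both sexes. Against vehicle the log2 fold change was 0.86 ± 0.29 in daily males (1.82-fold, edgeR adjusted p = 0.0827) and 0.89 ± 0.29 in daily females (1.85-fold, edgeR adjusted p = 0.13). In weekly animals it was -0.02 ± 0.29 in males and 0.09 ± 0.29 in females (edgeR adjusted p = 0.995 and 0.999).

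Tested directly, Plin4 was higher with daily than with weekly prednisone by 0.88 ± 0.29 in males (1.84-fold, edgeR adjusted p = 0.212) and 0.80 ± 0.29 in females (1.74-fold, edgeR adjusted p = 0.166). These differences did not pass the adjusted threshold. Plin4 was the only 1 of the 10 genes with an unadjusted p under 0.05 in either of these comparisons, against 6.41% of all genes higher in males and 9.03% in females. edgeR called 0 of the 10 in both (0% of all genes), and so did DESeq2 (1.65% of all genes in males, 4.02% in females). A further fit paired the same-numbered daily and weekly female libraries (replicate block). The pairing was taken from their correlation in these same data and not from the labels, so that its p-values rest on that choice. There Plin4 was higher by 0.90 (edgeR adjusted p = 0.0747) and 0 of the 10 were called, against 3.84% of all genes. Groups that did not overlap in this direction were found for 11.9% of all genes in males and 9.83% in females. The Pearson r of Plin4 with the adipocyte score was 0.632 over 18 libraries (rho 0.616, permutation p = 0.00526 and 0.00774, adjusted over the 10 genes 0.00658 and 0.00968), and 0.521 without the 2 farthest libraries. Within groups it was 0.734. With the score as a term in the fit, the daily log2 fold change averaged over the sexes was 0.24 (edgeR adjusted p = 0.645), and the part of adipocyte RNA in it was not tested.

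Plin2 (ENSMUSG00000028494, chr4:86648386-86670060, minus strand) encodes the perilipin found on droplets of most cell types. Its CPM were 36.7, 32.3 and 29.7 in male vehicle, 39.8, 52.7 and 40.3 in male weekly and 50.3, 24.0 and 34.0 in male daily libraries. In females they were 27.3, 20.1 and 28.9 with vehicle, 54.3, 27.7 and 165 with weekly and 26.0, 47.4 and 108 with daily prednisone. Male weekly libraries lay above male vehicle ones, while the other treated groups overlapped with vehicle. The log2 fold changes were 1.69 ± 0.57 in weekly females (edgeR adjusted p = 0.389), 1.25 ± 0.56 in daily females (edgeR adjusted p = 0.27), 0.43 ± 0.56 in weekly males and 0.13 ± 0.56 in daily males.

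Plin5 (ENSMUSG00000011305, chr17:56111601-56117596, minus strand), the perilipin of oxidative tissues that ties droplets to mitochondria, lay next to Plin4 on chromosome 17. Its level was 6.06 to 11.1 CPM in male vehicle, 5.37 to 17 in male weekly and 7.17 to 12.3 in male daily libraries, which overlapped throughout. In females it was 19.0, 18.9 and 12.7 CPM with vehicle, 27.0, 6.13 and 32.5 CPM with weekly and 38.3, 37.8 and 24.8 CPM with daily prednisone. The female daily group lay above vehicle, at 1.0 ± 0.49 on the log2 scale (1.99-fold, edgeR adjusted p = 0.307). The female response to daily prednisone exceeded the male one by 0.83 ± 0.70, a difference that did not pass (edgeR adjusted p = 0.889).

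Plin3 (ENSMUSG00000024197, chr17:56278962-56290511, minus strand), a perilipin that moves from the cytosol to young droplets, was the steadiest of the 10 genes. Its 18 libraries ranged from 17.5 to 28.3 CPM, a factor of 1.62. Its log2 fold changes lay between 0.11 ± 0.14 in weekly females and 0.17 ± 0.14 in the other comparisons with vehicle, none of which passed (edgeR adjusted p of 0.518 to 0.953). The male weekly group did not overlap with male vehicle, at 20.6 to 22.7 against 17.5 to 20.3 CPM.

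Scaled to the length of the merged exons in GENCODE release M21, from which the deposited coordinates of Plin1 and Plin3 differ, Plin4 was the most abundant perilipin in every library. It took 46.9 to 81.2% of the summed CPM per kilobase of the 5 perilipins. Plin1 took 0.516 to 1.77% in the vehicle libraries. It took 5.55 to 9.91% in male weekly, 1.91 to 6.04% in male daily, 1.94 to 19.7% in female weekly and 1.90 to 15.3% in female daily libraries, all above vehicle libraries of the same sex. Plin2 took 12.2 to 16.8% in male vehicle and a smaller 7.44 to 9.89% in male daily libraries, and 14.1 to 18.9% in male weekly ones. In females it took 5.78 to 13% with vehicle, 12.9 to 22.6% with weekly and 4.99 to 15.2% with daily prednisone, the groups overlapping. Plin3 took less with daily prednisone than with vehicle in both sexes, at 4.30 to 5.76% against 6.69 to 8.05% in males and 3.12 to 4.52% against 6.4 to 8.39% in females. Shares sum to the whole, so that a larger share of Plin4 or Plin1 lowers the others. Per kilobase, the mean level in male vehicle libraries ran from Pnpla2 (53.2 CPM per kb) and Plin4 (48.6) through Mgll (21.1), Plin2 (9.36), Lipe (7.99), G0s2 (5.36), Plin3 (5.0), Plin5 (4.19) and Cidec (2.90) to Plin1 (0.509). The ranges of Pnpla2 and Plin4 overlapped, as did each pair of neighbours from Plin2 to Cidec except for Lipe and G0s2. In female daily libraries Plin4 (119) and Pnpla2 (112) led, and Cidec (73.5) came next.

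**Figure D3:**
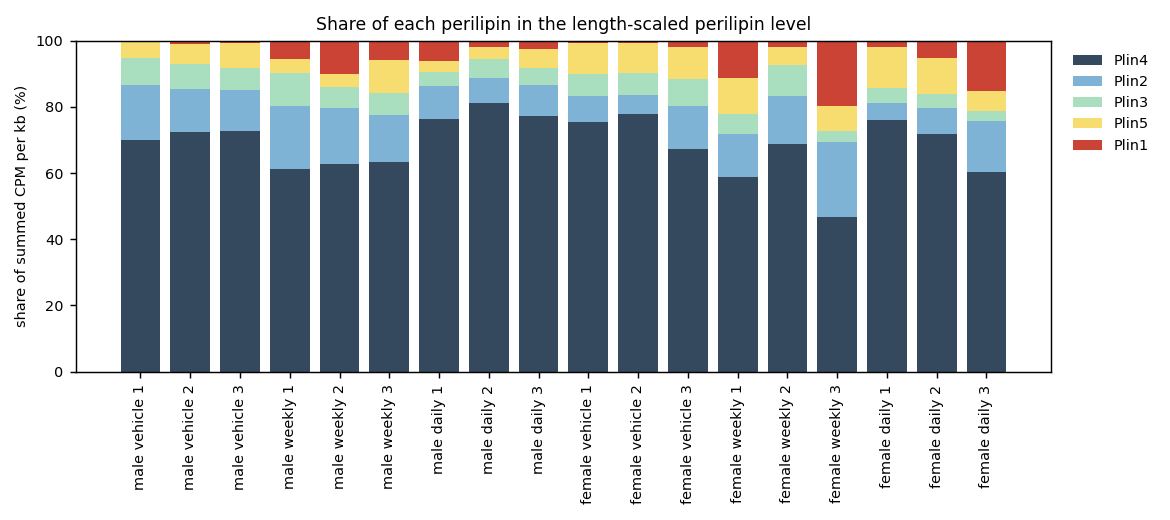
Share of each perilipin in the summed CPM per kilobase of the 5 perilipins, in percent, 1 bar per library, numbered by replicate. Plin4 is the largest share in all 18 bars, and Plin1 is widest in female weekly replicate 3 and female daily replicate 3, at 19.7% and 15.3%.

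Pnpla2 (ENSMUSG00000025509, chr7:141455198-141460743, plus strand), the gene of adipose triglyceride lipase, ranged from 115 to 743 CPM. Males had 162, 149.9 and 170.1 CPM with vehicle, 155, 231 and 216 CPM with weekly and 283, 183 and 233 CPM with daily prednisone. Females had 236, 238 and 145 CPM with vehicle, 333, 115 and 743 CPM with weekly and 325, 265 and 428 CPM with daily prednisone. The 6 daily libraries lay above all vehicle libraries of their sex, although the log2 fold changes did not pass, at 0.54 ± 0.44 in males (edgeR adjusted p = 0.503) and 0.72 ± 0.44 in females (edgeR adjusted p = 0.423). Female weekly libraries spanned the widest range, from the lowest to the highest of all 18, with a log2 fold change of 0.94 ± 0.44 (edgeR adjusted p = 0.626).

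Lipe (ENSMUSG00000003123, chr7:25379527-25398710, minus strand), hormone-sensitive lipase, held 39.2, 38.6 and 63.3 CPM in male vehicle, 58.8, 105 and 79.3 in male weekly and 125, 69.8 and 52.2 in male daily libraries. Female libraries held 64.8, 61.6 and 56.9 CPM with vehicle, 159, 79.8 and 381 CPM with weekly and 71.6, 104 and 271 CPM with daily prednisone. Both female treated groups lay above female vehicle, while the male groups overlapped. The log2 fold change was 1.76 ± 0.55 in weekly females (3.38-fold, edgeR adjusted p = 0.337), 1.29 ± 0.54 in daily females (edgeR adjusted p = 0.235), 0.81 ± 0.54 in daily males and 0.78 ± 0.54 in weekly males. An unnamed gene on the other strand, 4732471J01Rik, shares 918 bases of exon with Lipe, and reads from the pair cannot be told apart where counting ignored strand.

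Mgll (ENSMUSG00000033174, chr6:88724412-88828360, plus strand), monoacylglycerol lipase, had the smallest estimate of the 3 lipases for daily prednisone. Its libraries ranged from 72.2 to 239 CPM and its log2 fold change was 0.44 ± 0.29 in daily males, -0.03 ± 0.29 in daily females, 0.28 ± 0.29 in weekly males and 0.55 ± 0.29 in weekly females (edgeR adjusted p of 0.387 to 0.974). Only female weekly libraries, at 137 to 239 CPM, lay clear of vehicle, at 116 to 124 CPM. Mgll shares 167 bases of exon with Gm26588, and Plin4 shares 17 with Hdgfl2, both on the opposite strand.

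G0s2 (ENSMUSG00000009633, chr1:193272161-193273217, minus strand) encodes the protein that binds and inhibits ATGL. The gene was at 4.74, 5.30 and 3.96 CPM in male vehicle, 9.15, 7.49 and 6.76 in male weekly and 5.07, 5.78 and 6.36 in male daily libraries. Females had 6.44, 5.0 and 7.34 CPM with vehicle, 20.9, 7.37 and 34.4 CPM with weekly and 9.60, 11.2 and 16.7 CPM with daily prednisone. It was the only 1 of the 10 genes in which all 6 weekly libraries exceeded every vehicle library of their sex, a pattern of 1.14% of all genes, although female weekly replicate 2 did so by a narrow margin (7.37 against 7.34 CPM). Weekly females gave 1.74 ± 0.38 on the log2 scale (3.33-fold, edgeR adjusted p = 0.247) and weekly males 0.74 ± 0.40 (edgeR adjusted p = 0.849). Daily females gave 0.99 ± 0.38 (edgeR adjusted p = 0.189) and daily males 0.29 ± 0.40, and in males the daily group lay below the weekly one (12.7% of all genes).

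The balance of inhibitor to lipase was taken as the log2 ratio of G0s2 to Pnpla2 in each library. It ran from -5.37 to -4.78 in male vehicle, -4.96 to -4.06 in male weekly and -5.76 to -4.94 in male daily libraries. In females it ran from -5.53 to -4.27 with vehicle, -4.43 to -3.94 with weekly and -5.06 to -4.55 with daily prednisone. The mean weekly ratio was 0.65 higher than vehicle, with 3 of 6 weekly libraries above all vehicle libraries of their sex (two-sided exact permutation test within sex, p = 0.05, where the smallest p of the 400 relabellings is 0.005). The daily difference was 0.0056 (exact permutation p = 0.99). With 0.5 in place of 2 counts added before the logarithm, the weekly difference was 0.66 (exact permutation p = 0.045), and with 5 it was 0.62 (exact permutation p = 0.05). Leaving out 1 library gave differences of 0.50 to 0.82 (exact permutation p of 0.02 to 0.095), so that its side of 0.05 rested on these choices.

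**Figure D4:**
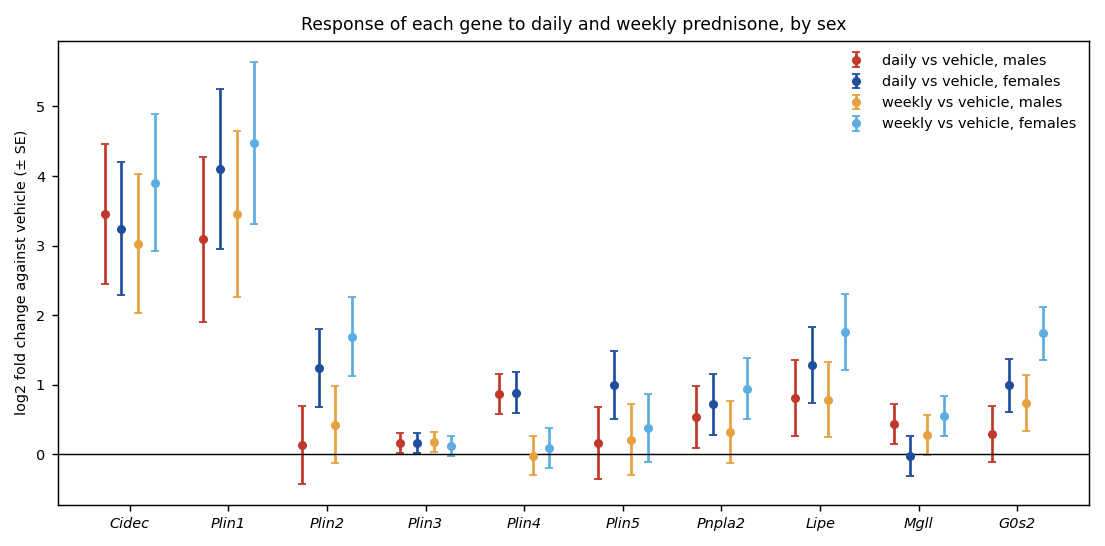
Log2 fold change against vehicle with its standard error, for each gene in the 4 comparisons (edgeR, 3 libraries per group). Cidec and Plin1 have the largest values and the widest errors in all 4, and Plin4 is near 0.9 in both daily comparisons and near 0 in both weekly ones.

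Cidec, Plin1, Plin4 and Pnpla2 were above every vehicle library of the same sex in all 6 daily libraries, which held for 5.44% of all genes. Daily groups that did not overlap with vehicle were found for these 4 genes in males (16.4% of all genes) and for the 4 with Plin5, Lipe and G0s2 in females (12.9%). Weekly groups lay clear of vehicle for Cidec, Plin1, Plin2, Plin3 and G0s2 in males (7.76%) and for Lipe, Mgll and G0s2 in females (4.94%). The study set limits on expression and fold change to choose genes for its correlation with muscle performance. With limits like these (mean log2 CPM above 2.5, log2 fold change beyond 0.5 in size, no test), the members kept were all higher. They were 5 of the 10 genes in daily males, 8 in daily females, 4 in weekly males and 7 in weekly females. The study's counts of responsive genes also used a limit on variation, which was not applied here. The shares of all genes kept as higher were 7.16%, 4.96%, 2.95% and 3.21%.

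Female weekly replicate 2 had the lowest adipocyte score of the 12 treated libraries and decided the weekly calls of edgeR, while DESeq2 made its 4 weekly calls with it included. Without it, edgeR called 4 of the 10 genes higher in weekly females (1.83% of all genes): Cidec at 4.43 (adjusted p = 0.0144), Plin1 at 5.0 (adjusted p = 0.0238), Pnpla2 at 1.35 (adjusted p = 0.0294) and G0s2 at 2.11 (adjusted p = 0.0046). Averaged over the sexes it then called Cidec, Plin1 and G0s2 (3 of 10, 1.26% of all genes). The remaining female weekly libraries, replicates 1 and 3, had the highest summed adipocyte markers of all 18. The brown fat gene Ucp1 was at 307 CPM in replicate 3, 23.7 CPM in replicate 1 and 0 in replicate 2. It was not confined to weekly females, at 0.538, 20.6 and 26.6 CPM in female daily replicates 1, 2 and 3. Male libraries held 1.67 to 6.07 CPM with weekly and 0 to 1.53 with daily prednisone, and vehicle libraries of both sexes 0 to 0.179 CPM. The part of fat cells in these weekly calls was not tested.

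All 10 genes had a positive correlation with the adipocyte score over the 18 libraries. After Cidec and Plin1, r was 0.932 for Lipe, 0.863 for G0s2, 0.843 for Plin2, 0.831 for Pnpla2, 0.678 for Plin3, 0.557 for Plin5 and 0.513 for Mgll. Without the 2 farthest libraries these were 0.875, 0.755, 0.673, 0.677, 0.668, 0.418 and 0.333. After taking out the group means they were 0.906, 0.807, 0.885, 0.829, 0.551, 0.517 and 0.466, for which no p-value was computed. Of the rank correlations, that of Mgll was the only one whose adjusted permutation p missed 0.05 (rho 0.47, p = 0.0514). These permutations again ignored the groups. For Plin2, r was 0.558 in the 9 male and 0.918 in the 9 female libraries, and for G0s2 it was 0.487 and 0.953, while for Lipe it was 0.87 and 0.945. With the score as a term, the daily estimates averaged over the sexes turned negative for Plin2 (-0.88), Lipe (-0.52), Pnpla2 (-0.51), G0s2 (-0.30), Mgll (-0.18), Plin5 (-0.09) and Plin3 (-0.03), and none was called. Vehicle and treated libraries did not overlap in the score, so that these signs are no evidence of a fall with prednisone.

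**Figure D5:**
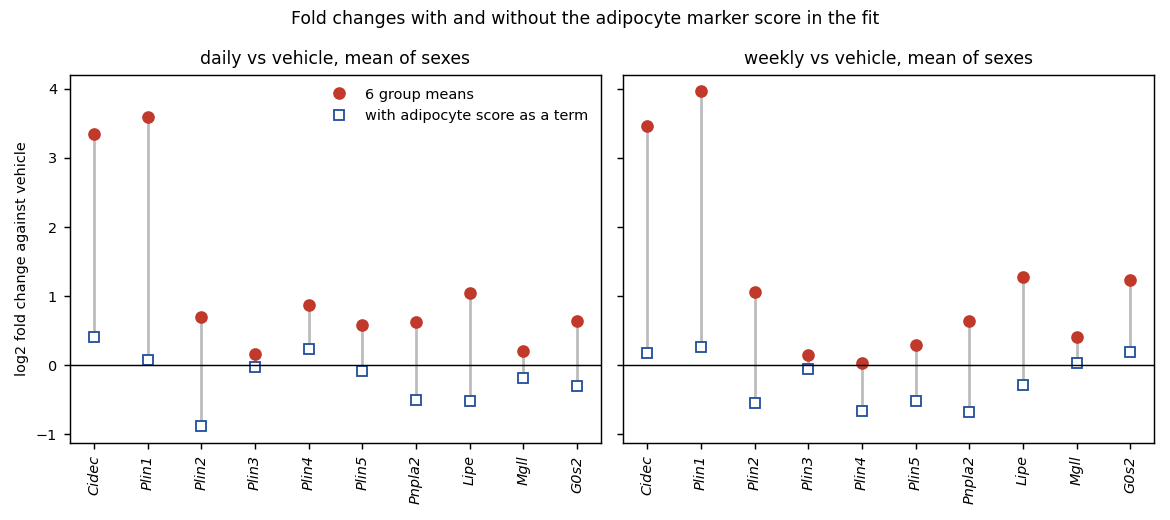
Log2 fold change of each gene against vehicle, averaged over the sexes, in the fit of 6 group means (filled circles) and in the fit with the adipocyte marker score as a further term (open squares), for daily (left) and weekly (right) prednisone. Cidec and Plin1 move from above 3 to below 0.5 in both panels.

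No difference between the sexes in response passed the test for any of the 10 genes. The study reported a strong weekly rise of lipid metabolism genes in females, including droplet formation and lipolysis, and a slight one for some in males. Its evidence included RT-PCR, which is not part of these data. For the daily response, edgeR called 0 of 10 (0% of all genes) and 0 had an unadjusted p under 0.05 (4.69% of all genes), and DESeq2 called 0 (0.0147%). For the weekly response, edgeR called 0 of 10 (0%), 0 had an unadjusted p under 0.05 (2.63%), and DESeq2 called 0 (0%). The standard errors of these differences were between 0.20 for Plin3 and 1.62 for Plin1, so that for Plin1 only a very large difference could have been detected. The weekly G0s2 response was 1.0 ± 0.55 higher in females (edgeR adjusted p = 1). With vehicle, edgeR called 0 of 10 between the sexes (0.765% of all genes), 0 had an unadjusted p under 0.05 (10.4%) and DESeq2 called 0 (1.73%). Female vehicle libraries lay above male ones for Cidec, at 1.42 ± 0.98, and Plin5, at 0.95 ± 0.51 (9.66% of all genes), and below them for Plin2, at -0.37 ± 0.56 (9.22%).

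Among 36 other genes of droplet formation and breakdown, 33 had enough counts to be tested. With daily prednisone averaged over the sexes, 7 of them were called higher and 1 lower, against 7.48% and 7.47% of all genes, and the median log2 fold change was 0.36. Gpam, which starts glycerolipid synthesis, was higher by 1.10 ± 0.20 (edgeR adjusted p = 0.0024). Dgat2, which makes triacylglycerol, was higher by 2.25 ± 0.56 and Agpat2, which makes phosphatidic acid, by 2.12 ± 0.59 (edgeR adjusted p = 0.0157 and 0.0264). Ces1f, a carboxylesterase, was higher by 4.09 ± 0.89 and Cidea, the relative of Cidec known from brown fat, by 4.60 ± 1.34 (edgeR adjusted p = 0.0082 and 0.0332). Fitm1, a muscle protein that promotes droplet formation, fell by 0.52 ± 0.14 (edgeR adjusted p = 0.0193). Its level was 139.8 to 179 CPM in male vehicle and 86.4 to 109 CPM in male daily libraries, and 129 to 165 against 86.4 to 132 CPM in females. In each comparison within a sex, edgeR called 0 of the 33. At an unadjusted p under 0.05, 3 of them were higher and 2 lower in daily males, against 10.6% and 12.2% of all genes. Those that passed in the other comparisons were higher, namely 12 for daily females (9.65% of all genes), 15 for weekly females (5.67%) and 2 for weekly males (3.01%).

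The genes whose levels ran closest to each member over the 18 libraries differed between members. They are the 3 with the highest Pearson r of log2 CPM among tested, named genes, a ranking over all genes and therefore a description. Cidec was nearest to Cyp2e1 (0.985), Adipoq (0.98) and Cdo1 (0.979), and Plin1 to Prkar2b (0.991), Ces1f (0.984) and Pck1 (0.981). Lipe was nearest to Sfxn1 (0.973), Cebpa (0.972) and Acsm3 (0.97), Pnpla2 to Gpat3 (0.965), Cat (0.961) and Acsl1 (0.959), and G0s2 to Uck1 (0.93), Dgat1 (0.919) and Tmem120a (0.914). Plin2 was nearest to Aacs (0.945), Gpat4 (0.943) and Arl4a (0.94), and Mgll to Arhgef28 (0.922), Rarres2 (0.906) and Tspan18 (0.861). Plin4 was nearest to Ccng2 (0.882), Nedd4 (0.879) and Net1 (0.879), Plin5 to Slc25a34 (0.92), Msh3 (0.873) and Mlxipl (0.865), and Plin3 to Mc5r (0.859), Pcbp2 (0.828) and Msh3 (0.81). Among the members themselves, Cidec and Plin1 were the closest pair (r = 0.964, and 0.944 within groups), and Plin5 and Mgll the farthest (r = 0.123).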

How the data were processed

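Per the labels and the study's methods, polyA RNA of isolated myofibers was sequenced and the authors aligned reads to mm10 with TopHat2 2.1.0 and Bowtie2 2.2.6 and counted them with HTSeq (the submitters' notes name mm9 as well). The annotation and strand setting are not given in the sources used here. The authors deposited raw counts per Ensembl gene for the 18 libraries. Of 43430 identifiers, 42462 had a symbol. Genes passing filterByExpr (minimum count 10) were tested, 13596 in all. edgeR 4.0.16 (R 4.3.3) fitted 6 group means to all 18 libraries by quasi-likelihood with TMM scaling, and p-values were adjusted by Benjamini-Hochberg over all tested genes, the threshold being 0.05. Errors are standard errors of the log2 fold change, taken as its size divided by the square root of the quasi-likelihood F statistic. CPM used TMM-scaled library sizes, and values per kilobase used merged exon lengths of GENCODE release M21, whose coordinates differ from the deposited ones for Plin1 and Plin3, so that their per-kilobase values are less certain. Correlations used log2 CPM with a prior count of 2. The G0s2 to Pnpla2 ratio was tested by exact permutation within sex. Alternatives were DESeq2 1.42.0, limma-voom (limma 3.58.1), DESeq2 size factors, no filter, the adipocyte score as a term, a replicate block, the compared groups alone, and leaving out each library; removal of length and GC trends, and a block in the female daily and weekly libraries, were added after seeing the data. The fit was also run on simulated counts, drawn independently for each gene and without a shift in cell types. That run therefore says nothing on such shifts, and no result given here rests on it.

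The members and lists were chosen with earlier results of these data known. The text names all 10 members, the 3 genes most alike to each, and up to 6 called genes per comparison of the list of other droplet genes. Total counts of 10506661 to 14686654 per library set the precision. No pair of libraries in a group was a copy (chi-square per degree of freedom of at least 13.2). Replicate numbers were checked for pairing. Only in daily against weekly females did all 3 same-numbered pairs deviate together (r of 0.501, 0.483 and 0.439). The numbers were treated as pairs there on this ground alone, a hint from the data and not from the labels. In the names of the count columns, the mice of each pair carried different numbers.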

Additional observations from a re-analysis of the deposited data

How the results depend on the processing

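The 3 calls under daily prednisone averaged over the sexes (Cidec, Plin1, Plin4) kept their direction in all 19 alternatives and were lost together in 1, while Plin1 was also lost with limma-voom. Adjusted p ran from 8.48e-06 to 0.541 for Cidec, 2.52e-05 to 0.924 for Plin1 and 0.000678 to 0.645 for Plin4, the highest being those with the adipocyte score as a term, where the count of called genes was 0. Without that term the highest were 0.0202, 0.087 (limma-voom) and 0.0376. Lipe joined them with DESeq2 and without female daily replicate 1 (4 calls each). DESeq2 raised the counts to 3 in daily males, 2 in daily females, 4 in weekly females and 4 in the weekly mean, against 0 with edgeR, and edgeR on the male daily and vehicle libraries alone gave 3. Leaving out 1 library gave 0 to 4 calls in weekly females and 0 to 3 in the weekly mean, the calls appearing without female weekly replicate 2 (Cidec, Plin1 and G0s2 in both, and Pnpla2 in females). The cause of these differences was not tested. The replicate block changed no call, with 3 in the daily mean and 0 elsewhere. A block within the paired female daily and weekly libraries also gave 0, although over all genes it raised the calls from 0 to 522 of 13596 (3.84%). The pairs of that block were chosen from these same data, so that the rise is no independent evidence of pairing.

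With the adipocyte score as a term, log2 fold changes turned negative in daily males for Plin2 (-1.06), Plin5 (-0.39), Pnpla2 (-0.37), Lipe (-0.39) and G0s2 (-0.42), and in daily females for Cidec (-0.28), Plin1 (-0.23), Plin2 (-0.70), Plin3 (-0.070), Pnpla2 (-0.64), Lipe (-0.65) and G0s2 (-0.18). They turned in weekly males for Plin2 (-0.65), Plin5 (-0.29), Pnpla2 (-0.53) and Lipe (-0.28), and in weekly females for Cidec (-0.62), Plin1 (-0.63), Plin2 (-0.45), Plin3 (-0.15), Plin4 (-0.84), Plin5 (-0.74), Pnpla2 (-0.83) and Lipe (-0.29). Averaged over the sexes they turned with daily prednisone for Plin2 (-0.88), Plin3 (-0.030), Plin5 (-0.092), Pnpla2 (-0.51), Lipe (-0.52), Mgll (-0.18) and G0s2 (-0.30), and with weekly prednisone for Plin2 (-0.55), Plin3 (-0.063), Plin4 (-0.66), Plin5 (-0.52), Pnpla2 (-0.68) and Lipe (-0.29). None of these values was called in the fit without the score. As the score did not overlap between vehicle and treated libraries, the turned signs are no evidence of a fall with prednisone.

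Estimates near 0 also changed sign elsewhere. Mgll in daily females was 0.0069 without the count filter, weekly Plin4 was 0.0045 in males fitted with vehicle alone, and in the mean of the sexes it was -0.0086 with limma-voom and -0.012 with length and GC trends removed. Leaving out 1 library gave -0.19 to 0.36 for Plin2 and -0.034 to 0.39 for Plin5 in daily males, and -0.21 to 0.22 for Mgll in daily females. In weekly males it gave -0.14 to 0.14 for Plin4 and -0.42 to 0.50 for Plin5. In weekly females it gave -0.0026 to 0.25 for Plin3, -0.26 to 0.36 for Plin4 and -0.0091 to 0.79 for Plin5, and in the weekly mean -0.14 to 0.17 for Plin4 and -0.031 to 0.50 for Plin5. The G0s2 to Pnpla2 difference was -0.013 with a prior count of 5 and -0.13 to 0.18 leaving out 1 library for daily, and 0.66 with a prior count of 0.5 and 0.50 to 0.82 for weekly prednisone, whose exact permutation p ran from 0.02 to 0.095 over all these settings and fell under 0.05 without male vehicle replicate 2, male weekly replicate 2 or 3, or female vehicle replicate 3. With a fold limit of 1 the expression and fold limits kept 2 members in daily males, 4 in daily females and 2 in weekly males, and without 1 library 3 to 6 in daily males (3 without male daily replicate 1). The other results kept their direction and their side of the threshold. Groups of 3 limit the precision, and with 17 to 43 counts in their lowest libraries Plin1, G0s2 and Cidec carry the largest counting error.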
